A study of Mus musculus with 18 samples.

Results

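Knockdown of *Hnrnpul1* during reprogramming of mouse embryonic fibroblasts (MEFs) was examined by comparing, at day 12 after induction of OCT4, SOX2, KLF4 and MYC (OSKM), the 4 libraries of cells infected with shRNAs against *Hnrnpul1* (shUL1) with the 2 libraries of cells infected with a scrambled control shRNA (shSCR). These 6 libraries, chosen by the titles in the labels, are part of 18 in the series. Each shRNA had 2 libraries: shUL1#1 replicates 1 and 2, and shUL1#2 replicates 1 and 2. Non-infected cells at day 0 (NI, 2 libraries) gave the starting level, and 4 libraries of cells infected with shRNAs against *Cpsf3* at day 12 (shCPSF3#1 and shCPSF3#2) shared the fit. All groups were primary MEFs that carry the doxycycline-inducible OKSM cassette in the collagen locus and the M2rtTA transactivator, and the NI cells received neither virus nor doxycycline. The infected cells were sorted for the GFP of the lentiviral vector, plated on irradiated MEF feeders, and collected with trypsin. RNA of feeder fibroblasts may therefore be part of every day 12 library and of no NI library, and in these bulk samples a change in the number of cells of a type cannot be told apart from a change of RNA within each cell. For shUL1#2 the labels disagree, since the titles and the methods of the study give day 12, the day used here, and a time field gives day 0. No source says that replicates 1 and 2 came from separate cultures, so the p values measure the spread between libraries, which may be technical.

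hnRNP UL1 is a nuclear RNA-binding protein of the hnRNP U family, known for roles in mRNA processing, transcription and the response to DNA damage. In MEF reprogramming, fibroblasts lose mesenchymal genes such as those of the fibrillar extracellular matrix, gain epithelial genes in a mesenchymal-to-epithelial transition, shift toward glycolysis, and later activate the pluripotency network. A difference between shUL1 and shSCR cells can thus be read against the level of the same gene before reprogramming began, which is given beside most results below.

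Expression was analysed as deposited, as read counts relative to library size, scaled between libraries (scaled CPM), for 9435 genes. In each library the values were whole multiples of a single step, within 0.01 of a step, and with this step taken as 1 read the 12 knockdown libraries had between 98882289 and 108390722 reads on the listed genes. The table favours the detection of genes that rose over genes that fell. No listed gene was under 5 scaled CPM in more than 3 of the 12 libraries, so a gene near 0 in the 4 shUL1 libraries cannot be listed, whereas a gene near 0 in the 2 shSCR libraries or the 2 NI libraries can. The mean of the shUL1 libraries was under 5 scaled CPM for 0 genes, that of shSCR for 13, and that of NI for 236. The NI libraries expressed the defining genes of fibroblasts, with *Col1a1* at 5158 and 6395 scaled CPM and *Vim* at 4593 and 4625, whereas of 40 genes of the pluripotency network 13 were listed. *Pou5f1*, *Nanog*, *Sox2*, *Cdh1* and *Epcam* were not among the listed genes and were not analysed here.

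The sequences targeted by both shRNAs are shown because they lie next to each other. Both targets are in exon 10 of 15 of the transcript Hnrnpul1-205, within the coding sequence, on the minus strand of chromosome 7 of mm10. The target of shUL1#1 (21 bases) is at chr7:25733027-25733047 and that of shUL1#2 (21 bases) at chr7:25733059-25733079, with 11 bases between them. In the transcript strand, 5′ to 3′, the window chr7:25733027-25733079 reads as follows, with the targets in capitals, that of shUL1#2 first.
*Hnrnpul1* exon 10: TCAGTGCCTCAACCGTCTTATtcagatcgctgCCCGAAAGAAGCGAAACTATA

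*Hnrnpul1* (ENSMUSG00000040725, protein coding, chromosome 7, 25721165 to 25754757) was lower in every shUL1 library than in every shSCR and NI library. It was expressed at 156 and 185 scaled CPM in the shSCR libraries, 55.7 and 85.8 in shUL1#1, and 38.7 and 63.7 in shUL1#2, against 186 and 198 in NI. The mean of the 4 libraries was 2.80-fold below shSCR (log2 difference −1.52, standard error 0.23, *limma* adjusted p = 0.0101). The call was lost without either shSCR library, with adjusted p = 0.0513 without replicate 1 and 0.0760 without replicate 2. The paralogs *Hnrnpul2* and *Hnrnpu* did not pass the test, with means of 237 scaled CPM against 261 in shSCR for the former (log2 difference −0.13, adjusted p = 0.572) and a log2 difference of −0.12 for the latter (adjusted p = 0.787). *Cpsf3*, which encodes the endonuclease of mRNA 3′ end cleavage, did not pass either (−0.29, adjusted p = 0.451). *Tia1*, an RNA-binding protein that promotes recognition of 5′ splice sites next to uridine-rich sequence, rose from 69.7 and 66.7 scaled CPM in shSCR to 113 and 103 in shUL1#1 and 98.4 and 86.3 in shUL1#2. Its groups did not overlap, with a log2 difference of 0.54 (standard error 0.10, adjusted p = 0.0166), and the shUL1 mean was also above the NI libraries, which had 63.7 and 67.6 (adjusted p = 0.00211).

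**Figure D1:**
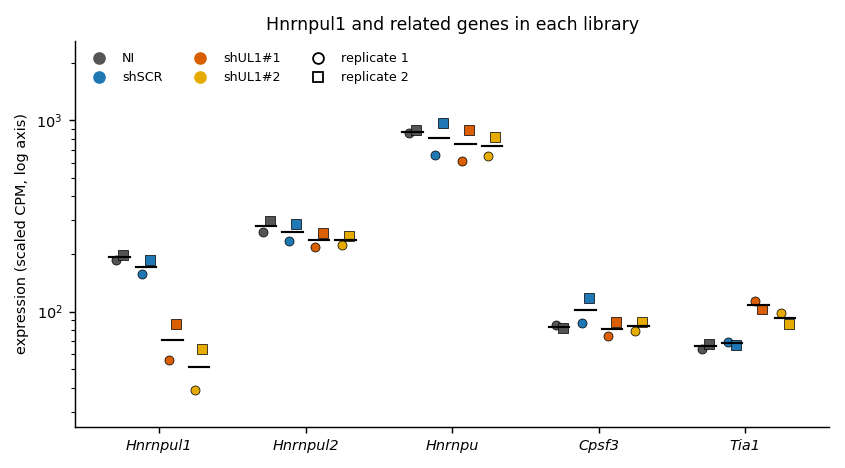
Expression of *Hnrnpul1*, its paralogs, *Cpsf3* and *Tia1* in scaled CPM (log axis) in each library of NI, shSCR, shUL1#1 and shUL1#2 cells. Points are libraries, with circles for replicate 1 and squares for replicate 2, and bars are the means of 2 libraries. *Hnrnpul1* was between 38.7 and 85.8 in the shUL1 libraries, below all others, and *Tia1* was higher in all 4 shUL1 libraries.

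Of the 9435 genes, 987 differed between shUL1 and shSCR cells (10.5%, *limma* adjusted p under 0.05), of which 690 rose (7.31%) and 297 fell (3.15%). Among the gene lists described here, that of the fibrillar matrix held the most rises, 21 of 47 measured genes, and that of glycolysis the most falls, 5 of 23. For the genes that rose, the median log2 difference was 0.81 for shUL1 against shSCR, 0.11 for shUL1 against NI and −0.68 for shSCR against NI. For the genes that fell, these medians were −0.64, 0.39 and 1.04, and over all genes each of them was 0.00. These comparisons share the shUL1, shSCR and NI libraries. Libraries with the same replicate number deviated together at day 12, and with the replicate number as a block 2768 genes differed (29.3%), with 1557 higher (16.5%) and 1211 lower (12.8%), the shares against which the counts with the block below are to be read. With another scaling, the median of ratios, the split moved from 690 and 297 to 550 and 372. The count was sensitive to single libraries. It was 208 without shSCR replicate 1, 158 without shSCR replicate 2, 306 without shUL1#1 replicate 1, 246 without shUL1#2 replicate 1 and 517 without shUL1#2 replicate 2. Of the 64 genes named by the rule of the analysis that passed the test, 7 kept it whichever of these groups' libraries was left out: *Adam12*, *Aldoc*, *Cdh11*, *Col14a1*, *Pcdh19*, *Podxl* and *Timp2*.

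Against day 0, 4045 genes differed in shUL1 cells (42.9%), 2215 higher (23.5%) and 1830 lower (19.4%). Without NI replicate 1 or 2, the count was 2135 or 2464. Of the 9435 genes, 37.8% had no overlap between the 4 shUL1 and the 2 shSCR libraries in either direction. Against day 0, shSCR itself differed in 44.5% of genes. Of the 690 genes that rose against shSCR, 238 were above the NI level, 172 were below it, and 280 did not differ from it by the test. Of the 297 that fell, 152 were above, 39 below, and 106 not called. By the means, shUL1 stood between NI and shSCR for 297 of the risen genes (43.0%), past NI for 255 (37.0%), and farther from NI than shSCR was for 138 (20%). For the fallen genes these numbers were 213 (71.7%), 63 (21.2%) and 21 (7.07%), and over all 9435 genes 50.0%, 17.0% and 33.1%. A few genes crossed the day 0 level, with shSCR on one side and shUL1 on the other and both called: 21 that rose and 1 that fell. The former include *Kctd12* and *Timp2*. The latter is *Ftl1*, the ferritin light chain, named after its values were seen, with means of 297 scaled CPM in NI, 382 in shSCR and 239 in shUL1.

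**Figure D2:**
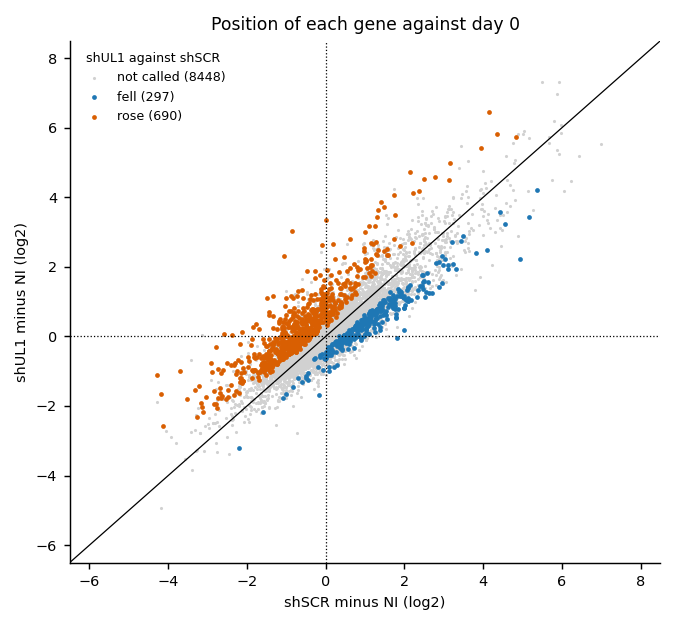
Difference from NI of each of the 9435 genes in shSCR cells (horizontal axis) and in shUL1 cells (vertical axis), both as log2 differences on log2(scaled CPM + 1). Orange points are the 690 genes that rose and blue points the 297 that fell against shSCR, grey points are genes not called, the solid line marks equal values, and the dotted lines mark the NI level. Fallen genes lie mostly to the right of the vertical dotted line (median 1.04), and risen genes lie on both sides of the horizontal one (median 0.11).

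The 15 largest rises fell into groups by their position against day 0. Some genes were far below day 0 in shSCR and overlapped with it in shUL1 cells. *Pcdh19*, a protocadherin of cell adhesion, had 16.5 and 22.1 scaled CPM in the shSCR libraries and between 95.5 and 139 in the shUL1 libraries, against 124 and 153 in NI. Its log2 difference from shSCR was 2.48 (standard error 0.16, adjusted p = 0.00155), and that from NI was −0.31 (adjusted p = 0.156). *Postn*, which encodes the matrix protein periostin, had 62.1 and 167 in shSCR, 663 and 694 in shUL1#1, 538 and 717 in shUL1#2, and 652 and 588 in NI (2.66 against shSCR, adjusted p = 0.0226). The microfibril-associated gene *Mfap4* followed the same order, with 4.96 and 6.31 in shSCR, between 25.7 and 52.6 in shUL1, and 39.6 and 27.8 in NI. In all 3 genes every shUL1 library lay above both shSCR libraries, and the range of shUL1 overlapped that of NI.

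Other genes stood, by the means, between shSCR and day 0 in shUL1 cells. *Adam12*, a metalloproteinase of mesenchymal cells, had 7.08 and 12.1 scaled CPM in shSCR, 100.5 and 82.2 in shUL1#1, 121 and 75.0 in shUL1#2, and 217 and 185 in NI. It was 9.86-fold above shSCR (log2 difference 3.19, adjusted p = 0.00464) and still below NI (−1.10, adjusted p = 0.0300). *Unc5c*, a netrin receptor, had 1.05 and 2.69 in shSCR, between 8.90 and 21.7 in shUL1, and 51.1 and 47.0 in NI. *Has2*, a hyaluronan synthase, had 6.71 and 7.43 in shSCR, 113 and 29.4 in shUL1#1, 59.8 and 34.8 in shUL1#2, and 97.8 and 108 in NI. For *Unc5c* and *Has2* the difference between shUL1 and NI did not pass the test (adjusted p = 0.0607 and 0.186). That of *Unc5c* passed with the block (adjusted p = 0.00925). The block pairs NI with day 12 libraries by number, although their deviations did not correlate.

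By the means, a further group rose past the day 0 level. *Col14a1* (chromosome 15, 55307750 to 55520803), a fibril-associated collagen, had the largest rise. It had 1.67 and 5.33 scaled CPM in shSCR, 70.0 and 59.8 in shUL1#1, 53.9 and 55.7 in shUL1#2, and only 5.92 and 6.96 in NI (log2 difference from shSCR 3.88, standard error 0.42, adjusted p = 0.00486, and from NI 3.03, adjusted p = 0.000883). *Col3a1*, the chain of type III collagen, had 1021 and 1251 in shSCR, 13130 and 6099 in shUL1#1, 5675 and 3467 in shUL1#2, and 758 and 1309 in NI. The shSCR and NI libraries of *Col3a1* thus overlapped (adjusted p = 0.780), while the shUL1 libraries were higher than both. The chemokine *Cxcl12* showed the same order, with 356 and 312 in shSCR, between 1206 and 4863 in shUL1, and 324 and 395 in NI. *Ccn3*, a matricellular gene, had 10.6 and 48.1 in shSCR, between 189 and 369 in shUL1, and 20.6 and 25.4 in NI. *Sned1*, another matrix gene, and *Comp*, the cartilage oligomeric matrix protein, were already above NI in shSCR and rose further. *Sned1* had 20.9 and 40.5 in NI, 85.6 and 206 in shSCR, and between 690 and 1007 in shUL1, and *Comp* 1.11 and 1.5, 4.79 and 5.32, and between 15.2 and 76.9. The last 3 genes of the 15 were *Ptn*, *AW551984* and *Kctd12*. The growth factor gene *Ptn* was at 31.2 in shSCR replicate 1 and 263 in replicate 2, and between 816 and 1184 in shUL1 (log2 difference 3.37, adjusted p = 0.0453, and against NI 0.0621, or 0.00874 with the block). *AW551984* had 1.88 and 7.57 in shSCR, between 13.1 and 54.5 in shUL1, and 8.78 and 18.9 in NI, so that shUL1 and NI overlapped (adjusted p = 0.175 against NI, and 0.00333 with the block). *Kctd12* had 6.57 and 11.8, between 37.0 and 76.5, and 25.8 and 22.3 in the same order. For *Ptn* and *AW551984*, the calls against NI with the block rest on a pairing by number that the NI libraries did not show.

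The largest falls were mostly of genes that had risen from day 0 to day 12 in shSCR cells and had risen less in shUL1 cells. *Fabp3* (chromosome 4, 130308595 to 130315463), a fatty acid-binding protein, had 198 and 197 scaled CPM in shSCR, 23.0 and 39.7 in shUL1#1, 16.9 and 45.8 in shUL1#2, and 6.02 and 5 in NI. The shUL1 mean was 6.31-fold lower than shSCR (log2 difference −2.72, standard error 0.39, adjusted p = 0.00875) and above NI (2.21, adjusted p = 0.00289). *Bnip3*, a mitochondrial protein of mitophagy known to respond to hypoxia, had 137 and 109 in shSCR, between 25.6 and 52.8 in shUL1, and 5.96 and 6.56 in NI. *Ak4*, a mitochondrial adenylate kinase, had 94.8 and 112, between 29.5 and 41.8, and 15 and 11.6 in the same order. In these genes no shUL1 library reached the shSCR range or the NI range.

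Other falls of this kind were of *Ndrg2*, *Acp6*, *Klhl13*, *Clybl*, *Plekhh1* and *Llgl2*, the last a regulator of epithelial polarity, and of *Gm16185*, named from its identifier since the table leaves the name empty. Their shSCR libraries were between 36.0 and 169 scaled CPM, their shUL1 libraries between 10.4 and 93.7, and their NI libraries between 1.62 and 18.2. The log2 differences from shSCR were between −1.31 and −1.46, and all 7 remained above NI by the test. *Ero1l*, an oxidase of disulfide bond formation, was in the range of day 0 instead. It had 566 and 229 in shSCR, between 77.1 and 120 in shUL1, and 98.0 and 82.3 in NI (log2 difference from shSCR −1.81, adjusted p = 0.0412, from NI 0.18, adjusted p = 0.773). *Hnrnpul1*, *Aldoc* and *Slc2a1* were also among the largest falls.

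**Figure D3:**
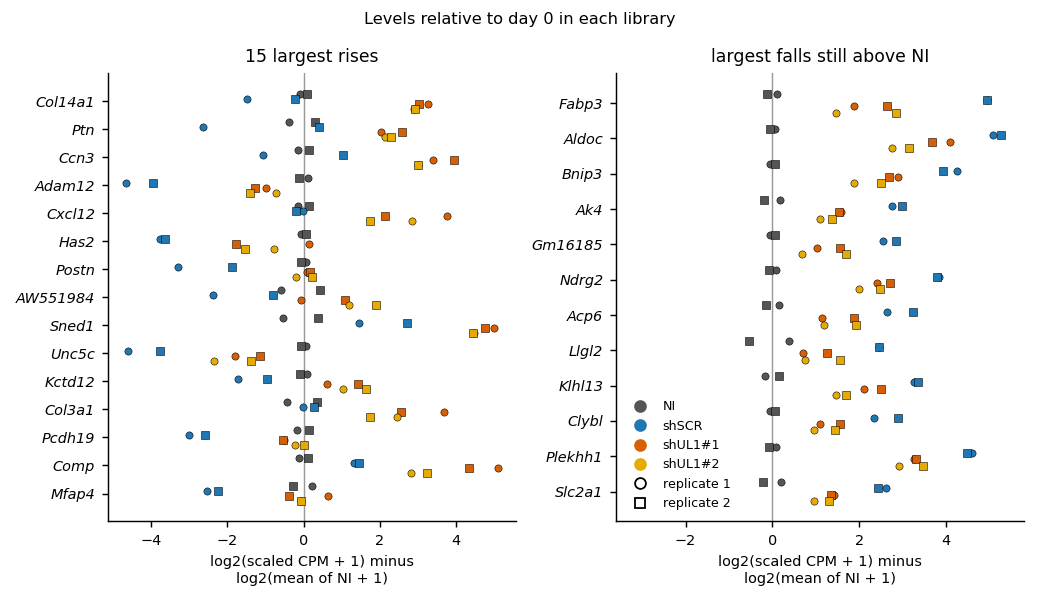
Levels of the 15 largest rises (left) and of the 12 of the largest falls that stayed above NI by the test (right) in each library, as log2(scaled CPM + 1) minus the log2 of the NI mean plus 1. Points are libraries of NI, shSCR, shUL1#1 and shUL1#2, and the vertical line marks the NI mean. Among the rises, *Pcdh19*, *Postn* and *Mfap4* lie at the line in shUL1 cells and *Col14a1*, *Sned1* and *Comp* far to its right, and the shUL1 libraries of the 12 falls lie between the line and shSCR.

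Of 49 genes of the fibrillar matrix 47 were measured, and 21 rose (44.7%, against 7.31% of all genes) and 0 fell. By the means 40 were above shSCR and 7 below, with a median log2 difference of 1.14 against shSCR and 0.07 against NI. The same genes had a median of −0.85 in shSCR against NI. Besides those named above, they included *Vcan* and *Lum*, proteoglycans of the matrix, and *Col1a1* and *Col1a2*, the chains of type I collagen, named after their values were seen. *Col1a1* had 1099 and 1228 scaled CPM in shSCR, 5182 and 3011 in shUL1#1, 3233 and 2669 in shUL1#2, and 5158 and 6395 in NI (log2 difference from shSCR 1.55, adjusted p = 0.0149), and so stood between shSCR and NI by the means. *Lum* had 167 and 54.2 in shSCR, between 351 and 811 in shUL1, and 3.85 and 5.18 in NI (2.30, adjusted p = 0.0226), and so was farther from day 0 in shUL1 than in shSCR. The summed level of the 47 genes was 42234 in shSCR replicate 1 and 25557 in replicate 2. It was 75235 and 42735 in shUL1#1 and 63273 and 43919 in shUL1#2, higher in each case than the shSCR library of the same number, but replicate 1 of shSCR was close to replicate 2 of both shRNAs. With the block, 30 rose (63.8%) and 1 fell.

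Mesenchymal regulators and surface markers (29 measured of 40) had 7 rises (24.1%, against 7.31% of all genes), 0 falls, and a median log2 difference of 0.41 against shSCR, 0.01 against NI. With the block, 12 rose (41.4%, against 16.5% of all genes) and 1 fell. *Cdh11*, a cadherin of mesenchymal cells, rose from 131 and 177 scaled CPM in shSCR to between 603 and 717 in shUL1, where NI had 547 in both libraries (log2 difference 2.11, standard error 0.17, adjusted p = 0.00297). *Cd248*, a surface protein of stromal fibroblasts, and *Osr1*, a transcription factor of embryonic mesenchyme, rose by 2.05 and 1.74 (adjusted p = 0.0415 and 0.0278), to levels that did not differ from NI by the test. Of the other members, *Vim*, *Thy1* and *Prrx1*, named after their values were seen, did not pass (adjusted p = 0.438, 0.894 and 0.881), with log2 differences of 0.34, 0.05 and 0.15. Contractile genes, which were far below day 0 in both conditions (medians of −1.84 for shUL1 and −1.91 for shSCR against NI), had a single rise among 23 measured (4.35%). This was *Lpp*, a protein of focal adhesions (0.67, adjusted p = 0.0423). With the block, 3 contractile genes rose and 1 fell. Of 31 measured genes of TGF-beta signalling, the receptors *Tgfbr2* and *Tgfbr1* rose (1.07 and 0.83, adjusted p = 0.0247 and 0.0157) and the inhibitor *Smad7* fell (−0.64, adjusted p = 0.0302). These shares, 6.45% and 3.23%, are near the 7.31% and 3.15% of all genes. *Tgfbr2* had 220 and 175 scaled CPM in shSCR, between 332 and 554 in shUL1, and 105 and 116 in NI, above day 0 in both conditions. The block gave 10 rises (32.3%, against 16.5% of all genes) and 1 fall in this list.

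**Figure D4:**
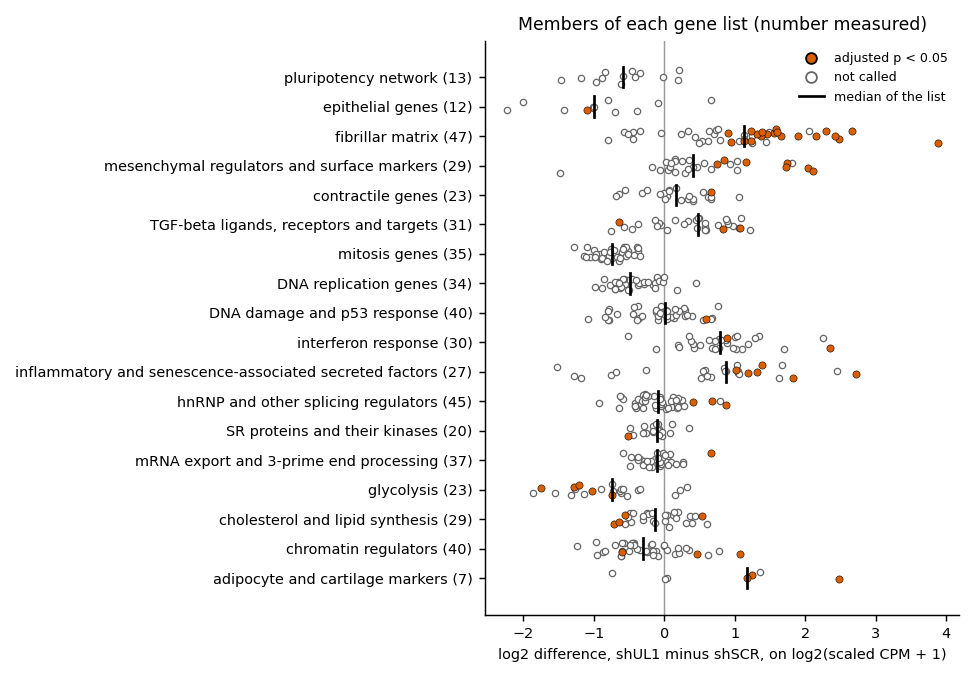
Log2 difference between shUL1 and shSCR on log2(scaled CPM + 1) for the measured members of each list with at least 5 measured genes. Filled points passed at a *limma* adjusted p under 0.05, open points did not, and bars are list medians, with the number measured after each name. The fibrillar matrix is displaced to the right (median 1.14) with 21 filled points, as are the 7 adipocyte and cartilage markers (1.17). The 12 epithelial genes (−0.997), glycolysis (−0.74) and mitosis genes (−0.74) are displaced to the left, mitosis without any filled point.

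Of 42 epithelial genes 12 were measured, and 11 of these had a lower mean in shUL1 than in shSCR cells, with a median log2 difference of −0.997 against shSCR and 1.2 against NI. By the test 1 fell (8.33%, against 3.15% of all genes). This was *Pkp2*, a plakophilin of desmosomes, with 50.6 and 58.9 scaled CPM in shSCR and between 21.7 and 27 in shUL1 (−1.09, adjusted p = 0.00931), below the 54.3 and 40.8 of NI. The keratin gene *Krt18*, named after its values were seen, had 271 and 152 in shSCR, 95.8 and 30.7 in shUL1#1, 41.9 and 25.7 in shUL1#2, and 14 and 10.9 in NI (−2.23, adjusted p = 0.0594, and 0.0123 with the block). With the block, 6 of the 12 fell (50%, against 12.8% of all genes) and 1 rose. The summed epithelial level was 1385 and 1189 in shSCR and between 610 and 753 in shUL1, against 408 and 343 in NI, so these groups did not overlap.

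Of the 13 measured genes of the pluripotency network 0 passed the test, and 4 fell with the block (30.8%, against 12.8% of all genes). Their median log2 difference was −0.58 against shSCR, whereas both conditions were far above day 0 (2.44 for shUL1 and 2.89 for shSCR). *Etv5*, a transcription factor expressed in pluripotent cells, had 233 and 442 scaled CPM in shSCR, between 155 and 311 in shUL1, and 42.7 and 43.5 in NI (−0.58, adjusted p = 0.440, 0.0750 with the block, and 0.00734 with the block in the day 12 libraries only). *Dnmt3b*, a de novo DNA methyltransferase, had 103 and 208 in shSCR, 85.5 and 383 in shUL1#1, 89.3 and 273 in shUL1#2, and 4.45 and 4.31 in NI (0.20, adjusted p = 0.905). Replicate 2 was above replicate 1 in every day 12 group for *Etv5* and *Dnmt3b*, and the groups overlapped, but each shUL1 library of *Etv5* was below the shSCR library of the same number. *Podxl*, a sialomucin abundant on pluripotent and epithelial cells, is not a member of this list and was named for its difference from shCPSF3. It fell from 230 and 261 in shSCR to between 95.8 and 120 in shUL1, far above the 5.29 and 4.70 of NI (−1.14, standard error 0.12, adjusted p = 0.00464).

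All 35 genes of the mitosis list were measured, and all 35 had a negative log2 difference, with a median of −0.74 against shSCR and −1.32 against NI. In the fit without the block 0 passed, and with it 22 fell (62.9%, against 12.8% of all genes). *Top2a*, a topoisomerase of chromosome segregation, had 300 and 648 scaled CPM in shSCR replicates 1 and 2, 182 and 475 in shUL1#1, 240 and 442 in shUL1#2, and 592 and 683 in NI (−0.51, adjusted p = 0.616, 0.147 with the block, and 0.0209 with the block in the day 12 libraries only). *Anln*, an actin-binding protein of cytokinesis, had 194 and 287, 94.9 and 143, 82.8 and 129, and 339 and 400 in the same order (−1.10, adjusted p = 0.0875, and 0.00284 with the block). The summed level of the list was 2691 and 5054 in shSCR, 1396 and 3282 in shUL1#1, and 1672 and 3025 in shUL1#2, so that the difference between replicates 1 and 2 was as large as that between conditions. Among 34 measured genes of DNA replication 0 passed, the median was −0.48, and 5 fell with the block (14.7%). *Rrm1* and *Rrm2*, the subunits of ribonucleotide reductase, had log2 differences of 0.18 and −0.13 (adjusted p = 0.410 and 0.895).

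All 23 genes of the glycolysis list were measured, and 20 had a lower mean in shUL1 than in shSCR cells. By the test 5 fell (21.7%, against 3.15% of all genes) and 0 rose, and 12 fell with the block (52.2%, against 12.8%). Their median log2 difference was −0.74 against shSCR and 0.83 against NI, where shSCR itself was 1.46 above NI. The 5 were *Aldoc*, *Slc2a1*, *Aldoa*, *Gpi1* and *Pfkm*, of which the last 2 are named after their values were seen. *Slc2a1*, the glucose transporter GLUT1, had 587 and 513 scaled CPM in shSCR, 253 and 241 in shUL1#1, 184 and 232 in shUL1#2, and 108 and 81.1 in NI (−1.27, adjusted p = 0.0297). The aldolase gene *Aldoc* had 69.9 and 78.7 in shSCR, between 13.2 and 34.7 in shUL1, and 1.19 and 1.00 in NI (−1.74, standard error 0.19, adjusted p = 0.00486). Both genes remained above day 0 in shUL1 cells. *Aldoa*, the more abundant aldolase, had 1322 and 1794 in shSCR, between 515 and 791 in shUL1, and 618 and 564 in NI (−1.20, adjusted p = 0.0361), and did not differ from day 0 by the test (adjusted p = 0.643). The isomerase gene *Gpi1* had the same pattern (−1.03 against shSCR, 0.08 against NI). The phosphofructokinase gene *Pfkm* had 114 and 120 in shSCR, between 63.5 and 73.5 in shUL1, and 33.2 and 36.7 in NI (−0.74, adjusted p = 0.00737). The summed level of the 23 genes was 14457 and 18487 in shSCR and between 7332 and 11079 in shUL1, on both sides of the 9696 and 9561 of NI.

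In cholesterol and lipid synthesis (29 measured), *Pmvk* and *Lss*, enzymes of the mevalonate and sterol pathway, and *Srebf2*, the transcription factor of that pathway, fell (−0.71, −0.65 and −0.56, adjusted p = 0.0241, 0.0378 and 0.0492), which is 10.3% of the list, against 3.15% of all genes. *Acaca*, the acetyl-CoA carboxylase of fatty acid synthesis, rose (0.53, adjusted p = 0.0339), which is 3.45%, against 7.31%. The list as a whole had a median of −0.13, and 2 rose and 6 fell with the block (6.90% and 20.7%, against 16.5% and 12.8% of all genes). *Pmvk*, *Lss* and *Srebf2* did not differ from NI in shUL1 cells by the test (adjusted p = 0.308, 0.208 and 0.0695). With the block *Srebf2* was above NI (adjusted p = 0.0244), a call that rests on a pairing by number that the NI libraries did not show.

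Inflammatory and senescence-associated secreted factors had 6 rises among 27 measured genes (22.2%, against 7.31% of all genes), 0 falls, and a median log2 difference of 0.88 against shSCR and 0.89 against NI. After *Cxcl12*, the largest were *Igfbp3*, which binds insulin-like growth factors, and *Timp2*, an inhibitor of metalloproteinases. *Igfbp3* had 269 and 600 scaled CPM in shSCR, 1094 and 1047 in shUL1#1, 2102 and 1717 in shUL1#2, and 38.7 and 50.7 in NI (1.82, adjusted p = 0.0205). *Timp2* had 551 and 467, 1327 and 1281, 1368 and 1348, and 681 and 827 in the same order (1.39, standard error 0.15, adjusted p = 0.00486), so that it was below NI in shSCR and above it in shUL1. With the block, 11 rose (40.7%, against 16.5% of all genes) and 2 fell. The summed level of the list was 12319 in replicate 1 and 4250 in replicate 2 of shSCR and between 8824 and 22445 in shUL1, with overlap between the conditions.

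Of 30 measured interferon-response genes, *Ifit3* and *Tap1*, an antiviral effector and a peptide transporter of antigen presentation, rose, a share (6.67%) near that of all genes (7.31%). *Ifit3* had 6.96 and 3.79 scaled CPM in shSCR, 15.1 and 19.7 in shUL1#1, 82.1 and 34.6 in shUL1#2, and 4.70 and 11.7 in NI (2.35, adjusted p = 0.0302). The rise was larger with shUL1#2, although the difference between the shRNAs was not called. The median of the list was 0.79 against shSCR and 1.73 against NI, and 6 rose with the block (20%, against 16.5% of all genes). Of 40 measured genes of the DNA damage and p53 response, *Phlda3*, a p53 target, rose (0.59, adjusted p = 0.0293), which is 2.5%, against 7.31% of all genes, in a list with a median of 0.01, and with the block 5 rose and 7 fell (12.5% and 17.5%).

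Markers of other cell types were few in the table. Of 14 macrophage markers 3 were listed, *Lyz2*, *Cd68* and *Csf1r*, and 0 passed, with 1 rise with the block. *Ptprc*, *Adgre1*, *Itgam* and 8 further markers of the list were not listed. The summed level of the 3 was 10.6 and 9.57 scaled CPM in NI, 300.4 and 171 in shSCR, and between 259 and 1000.2 in shUL1. *Lyz2* had 249 and 132 in shSCR, 483 and 226 in shUL1#1, and 923 and 514 in shUL1#2 (1.39, adjusted p = 0.144, and 0.0405 with the block). In the sums of these markers, the secreted factors and the interferon-response genes, replicate 1 was above replicate 2 in each day 12 group. Each shUL1 library was above the shSCR library of the same number. The sums differed in other respects. Replicate 1 of shUL1#1 was below that of shUL1#2 for the macrophage markers (533 against 1000.2) and above it for the secreted factors (22445 against 19030). In NI the macrophage sum was far below shSCR, whereas that of the secreted factors lay between the shSCR libraries. The part of these markers in those results was not tested. Of 10 endothelial markers *Flt1* and *Tek* were listed and neither passed (adjusted p = 0.779 and 0.0643), with *Tek* at 25 and 29.7 in shSCR, between 41.9 and 143 in shUL1, and 1.15 and 1.51 in NI. *Tek* passed with the block (adjusted p = 0.0153). Of the adipocyte and cartilage markers (7 measured), *Lpl*, *Sox9* and *Comp* rose (42.9%, against 7.31% of all genes), and 4 rose with the block (57.1%). The summed level of the 7 was 4435 and 2377 in shSCR and between 1815 and 2867 in shUL1. Most of it was of *Spp1*, which was below shSCR by the means (log2 difference −0.75, adjusted p = 0.164). *Spp1* was named after its values were seen. *Tubb3*, a neuronal tubulin, and *Dab2*, an adaptor of primitive endoderm and fibroblasts, rose (1.26 and 0.79, adjusted p = 0.0145 and 0.0461). The neural list of *Tubb3* had 4 measured genes, 2 above and 2 below shSCR by the means, with a median of −0.18, and the list of *Dab2* had 3, of which 1 was below shSCR. *Des*, the only skeletal muscle marker listed, did not pass (0.29, adjusted p = 0.696).

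Among 45 measured hnRNPs and other splicing regulators 3 rose (6.67%, against 7.31% of all genes) and 0 fell, with a median of −0.09. *Celf2*, *Mbnl1* and *Rbfox2*, regulators of tissue-specific exons that are abundant in fibroblasts, rose by 0.88, 0.67 and 0.41 (adjusted p = 0.0259, 0.0447 and 0.0278). *Mbnl1* had 131 and 91.7 scaled CPM in shSCR, 153 and 139 in shUL1#1, 219 and 203 in shUL1#2, and 310 and 295 in NI. *Mbnl1* and *Celf2* stayed below NI, and *Rbfox2* stood at the NI level (adjusted p = 0.906). With the block, 4 rose and 7 fell. Among 20 SR proteins and their kinases, *Tra2a*, a splicing activator, fell from 266 and 286 to between 179 and 219, near the 191 and 181 of NI (−0.51, adjusted p = 0.0370). This is 5% of the list, against 3.15% of all genes, and 3 fell with the block. Among 37 genes of mRNA export and 3′ end processing, *Ncbp2*, a subunit of the nuclear cap-binding complex, rose (0.67, adjusted p = 0.0132), which is 2.7%, against 7.31% of all genes, with 1 rise and 3 falls with the block. Of 40 chromatin regulators, *Smarca2*, an ATPase of the SWI/SNF complex, and *Tet3*, a dioxygenase of 5-methylcytosine, rose (1.07 and 0.47, adjusted p = 0.0139 and 0.0177), and the deacetylase *Hdac6* fell (−0.60, adjusted p = 0.0404). These are 5% and 2.5% of the list, against 7.31% and 3.15% of all genes. The median of this list was −0.30, with 5 rises and 8 falls with the block.

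No gene differed between shUL1#1 and shUL1#2 at a *limma* adjusted p under 0.05 (0 genes, with 477 at an unadjusted p under 0.05, which is 5.06%, and 0 with the block). With 2 libraries each, 465 genes differed from shSCR for shUL1#1 alone and 588 for shUL1#2 alone. Between shUL1 and shCPSF3 cells, 4 genes differed (0.0424%, with 1207 at an unadjusted p under 0.05 and 70 with the block), and leaving out 1 library at a time gave between 0 and 7. These were *Sdc3*, *Podxl*, *Slc38a4* and *Ptgis*. *Ptgis*, the prostacyclin synthase, had 20 and 18 scaled CPM in shUL1#1, 73.8 and 49.8 in shUL1#2, and between 10.4 and 13 in shCPSF3 cells (log2 difference 1.49, adjusted p = 0.0106). *Slc38a4*, an amino acid transporter, had between 99.1 and 133 in shUL1, 29.0 and 33.7 in shCPSF3#1, and 81.9 and 82.5 in shCPSF3#2 (1.11, adjusted p = 0.0106). In *Sdc3*, a syndecan, the 179 and 202 of shCPSF3#1 stood apart from the 86.9 and 77.7 of shCPSF3#2, which were in the range of shUL1#2 (77.7 and 89.0). *Podxl* had 37.2 and 30.6 in shCPSF3#1 and 98.7 and 111 in shCPSF3#2, the latter within the shUL1 range. In *Sdc3*, *Slc38a4* and *Podxl* the shCPSF3#1 libraries were thus farther from shUL1 than those of shCPSF3#2.

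Alternative splicing (AS) was analysed in 284583 events with reads in all 12 knockdown libraries, by the reads that show inclusion and exclusion. Inclusion is given as percent spliced in (PSI), the share, in percent, of a gene's transcripts with the exon, the intron or the splice site in question. Between shUL1 and shSCR cells, 883 events differed (0.310%, *limma* adjusted p under 0.05), 388 with higher and 495 with lower inclusion. With the block 1350 differed. The count was 57 without shSCR replicate 1, 477 without shSCR replicate 2, 69 and 141 without replicate 1 and 2 of shUL1#1, and 98 and 218 without those of shUL1#2. Of the 883, 299 events in 236 genes (0.105%) also differed by at least 10 PSI with all shUL1 libraries at least 5 PSI from both shSCR libraries. They comprised 150 cassette exons, 74 retained introns, 46 alternative 5′ and 29 alternative 3′ splice sites, with the sites of a pair counted separately. Against NI, 5589 events differed in shUL1 cells (1.96%) and 9007 in shSCR cells (3.16%). The former count was 507 without NI replicate 1, 1014 without NI replicate 2, and between 1659 and 2050 without any 1 of the shUL1 libraries. Of the 32 events named by rule that passed the test against shSCR, 5 kept it whichever of these groups' libraries was left out: the *Rps24* site, both *Srsf5* sites, and the exons of *Epb41l1* and *Gtf2a2*. The others of the 32 lost it in at least 1 omission.

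In these 299 events the means of shUL1 were mostly nearer to day 0 than those of shSCR were. The median absolute ∆PSI was 17.0 between shUL1 and shSCR, 5.78 between shUL1 and NI, and 18.9 between shSCR and NI, and 219 of the 299 were within 10 PSI of NI. By the means, shUL1 stood between NI and shSCR in 192 events (64.2%), past NI in 100, and farther from NI than shSCR in 7. Of the 5311 tested events with at least 10 PSI between shSCR and NI, a set chosen in another way, 83.8% stood between. Against NI, 70 of the 299 passed the test (23.4%, against 1.96% of all events). The comparisons share the shUL1 libraries. Since the events were chosen for their difference from shSCR, the distance from shSCR and the nearness to NI are descriptions. The share of all tested events within 10 PSI of NI is not given here. Of the 150 cassette exons 55 were more and 95 less included than in shSCR, and 86 (57.3%) had a length divisible by 3, against 48.8% of the 3584 tested exons with a PSI between 10 and 90 in shSCR. The retained introns were higher in 27 cases and lower in 47.

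The 6 exons of at most 71 bases among the named events that passed the test and lie wholly within annotated coding sequence are shown with 10 bases of the neighbouring exons, because in these the shUL1 libraries were nearer to day 0 than shSCR was. Each is given 5′ to 3′ on the strand of its gene in the GENCODE M21 transcript, with the alternative exon in capitals and its mm10 position before it.
*Dnm1l*, 33 bases, chr16:16318445-16318477, minus strand: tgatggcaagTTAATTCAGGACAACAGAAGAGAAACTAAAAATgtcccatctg
*Taz*, 36 bases, chrX:74288984-74289019, plus strand: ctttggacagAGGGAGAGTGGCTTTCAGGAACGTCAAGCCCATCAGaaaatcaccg
*Mbnl2*, 54 bases, chr14:120395712-120395765, plus strand: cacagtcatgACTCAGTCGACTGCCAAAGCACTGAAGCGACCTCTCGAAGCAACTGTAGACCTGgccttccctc
*Cacna1c*, 33 bases, chr6:118630399-118630431, minus strand: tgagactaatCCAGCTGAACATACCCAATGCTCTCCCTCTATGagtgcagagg
*Abi3bp*, 48 bases, chr16:56613673-56613720, plus strand: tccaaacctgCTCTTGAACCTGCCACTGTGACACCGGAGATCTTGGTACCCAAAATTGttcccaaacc
*Slc9a5*, 71 bases, chr8:105357581-105357651, plus strand: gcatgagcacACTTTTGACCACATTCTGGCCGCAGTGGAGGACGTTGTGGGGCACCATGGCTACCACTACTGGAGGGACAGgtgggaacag
The lengths of these exons are divisible by 3 except for that of *Slc9a5*.

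The exons of *Dnm1l*, a GTPase of mitochondrial fission, *Taz*, the cardiolipin transacylase tafazzin, and *Mbnl2*, a splicing regulator, were skipped more in shUL1 than in shSCR cells. That of *Dnm1l* had a PSI of 74.7 and 77.4 in shSCR, 29.9 and 41.0 in shUL1#1, 25.1 and 38.6 in shUL1#2, and 20.2 and 19.0 in NI (adjusted p = 0.0171). That of *Taz* had 68.9 and 60.4 in shSCR, between 17.1 and 38.8 in shUL1, and 36.8 and 20 in NI (adjusted p = 0.0196), so shUL1 and NI overlapped. That of *Mbnl2* had 20.4 and 33.2 in shSCR, between 8.83 and 11.8 in shUL1, and 12.8 and 10.7 in NI (adjusted p = 0.0351). The other large decreases were of exons in *Gtf2a2*, a subunit of the general factor TFIIA, and *Slc9a5*, a sodium and proton exchanger, of the longer splice site of *Slc39a11*, a zinc transporter, and of retained introns in *Des*, *Grina* and *Tex9*. The *Gtf2a2* exon (170 nt, outside coding sequence) had 85.0 and 86.0 in shSCR, between 40.2 and 54.0 in shUL1, and 51.0 in both NI libraries. The *Slc9a5* exon had 76.6 and 82.7 in shSCR, between 33.9 and 56.1 in shUL1, and 22.1 and 21.3 in NI (adjusted p = 0.00822 against shSCR and 0.0155 against NI). The *Grina* intron had 64.7 and 54.7 in shSCR, between 22.0 and 27.2 in shUL1, and 16.9 and 10.9 in NI. The *Des* intron had the largest decrease, from 63.9 and 74.0 to between 10.1 and 33.3, with 1.5 and 1.57 in NI, at 52 to 227 reads a library.

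The exons of *Cacna1c*, the pore subunit of an L-type calcium channel, and *Abi3bp*, a matrix protein, were included more in shUL1 than in shSCR cells. That of *Cacna1c* had 23.4 and 31.0 in shSCR, 60.6 and 57.2 in shUL1#1, 68.7 and 70.5 in shUL1#2, and 50.8 and 54.9 in NI (adjusted p = 0.00584), at 30 to 93 reads a library. That of *Abi3bp* had 30.1 and 36.9 in shSCR, between 62.6 and 71.2 in shUL1, and 68.6 and 64.2 in NI (adjusted p = 0.0169), at 27 to 2012 reads a library. The further large increases were of exons in *Srpk2* (64 nt) and *Epb41l1* (408 nt), of splice sites in *Rps24*, *Rpl5* and *Slc39a11*, and of an intron in *Tmc4*. The *Rps24* site, in a ribosomal protein gene, had 49.5 and 52.9 in shSCR, between 83.6 and 88.6 in shUL1, and 97.9 and 97.0 in NI, and it was still below NI by the test (adjusted p = 0.00206). The *Tmc4* intron had 23.0 and 30.0 in shSCR, between 61.5 and 89.7 in shUL1, and 100 in both NI libraries.

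Of the 17 named events in genes of splicing regulators, 11 stood between NI and shSCR in shUL1 cells by the means and 6 past NI. Of all 299 events 64.2% stood between, a similar share, and several of the 17 share reads. In *Srsf1*, an SR protein, a coding segment of 187 nt had a PSI of 66.7 and 73.5 in shSCR, 87.8 and 91.3 in shUL1#1, 93.5 and 92.9 in shUL1#2, and 96.4 and 98.2 in NI (adjusted p = 0.0228). In *Srsf5* the upstream of the alternative 5′ splice sites had 33.2 and 40.2 in shSCR, between 64.9 and 66.9 in shUL1, and 73.1 and 75.4 in NI (adjusted p = 0.00453), and the site 130 nt downstream fell by the same amount, since the events of a pair share reads. The intron that begins at the upstream site fell by 16.5 PSI and overlaps the 130 nt. In *Hnrnpa2b1* an exon of 73 nt not found in the annotation had 65.4 and 60.1 in shSCR, 51.4 and 49.1 in shUL1#1, 23.7 and 32.7 in shUL1#2, and 11.3 and 11.1 in NI. The 2 shRNAs did not overlap for this exon, and both were above NI. In *Tia1*, the exon at chr6:86423606-86423671 (66 nt), which the annotation holds only in transcripts not classed as protein coding, had 70.4 and 69.7 in shSCR, between 32.6 and 41.2 in shUL1, and 22.9 and 20.9 in NI (∆PSI −33.6, adjusted p = 0.00541). *Tia1* introns also fell, by 26.7 and 15.3 PSI. The larger of these introns contains the 66 nt exon, and the intron of *Hnrnpa2b1* that fell by 27.5 PSI contains the 73 nt exon, so these pairs share reads. *Tia1* was thus changed in both level and inclusion, with a level above NI. *Hnrnpd* (147 nt) fell by 11.6 PSI and *Srpk2* also had a decrease of 11.7 PSI at an alternative 3′ splice site. This site and the *Mbnl2* exon stood slightly past NI.

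The kinases *Clk1* and *Clk2*, which phosphorylate SR proteins and whose transcripts are known to retain introns around an alternative exon, had intron means past the day 0 level, and 2 of the 4 introns passed the test against NI. The *Clk1* intron upstream of this exon (chr1:58420212-58421082) had a PSI of 20.7 and 23.1 in shSCR, 43.4 and 42.7 in shUL1#1, 45.5 and 40.2 in shUL1#2, and 30.8 and 21.8 in NI (adjusted p = 0.0177 against shSCR, 0.0242 against NI). The downstream intron (chr1:58419734-58420120) had 16.4 and 18.5 in shSCR, between 31.3 and 42.4 in shUL1, and 27.6 and 21.5 in NI (adjusted p = 0.0228 and 0.0744). The introns on both sides of the corresponding *Clk2* exon rose as well, the first from 17.4 and 20.4 to between 36.9 and 39.4, with 23.9 and 19.2 in NI (adjusted p = 0.0120 and 0.0121), and the second by 14.5 PSI (adjusted p = 0.0241 against shSCR and 0.126 against NI). For both genes all shUL1 libraries were above all shSCR and NI libraries. The exons between the introns, looked up after these values were seen, did not pass. They have the following sequences, with the exon in capitals and 10 bases of the neighbouring exons.
*Clk1*, 91 bases, chr1:58420121-58420211, minus strand: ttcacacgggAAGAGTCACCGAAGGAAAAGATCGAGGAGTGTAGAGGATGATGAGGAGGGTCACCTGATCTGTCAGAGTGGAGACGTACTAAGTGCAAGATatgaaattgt
*Clk2*, 85 bases, chr3:89169618-89169702, plus strand: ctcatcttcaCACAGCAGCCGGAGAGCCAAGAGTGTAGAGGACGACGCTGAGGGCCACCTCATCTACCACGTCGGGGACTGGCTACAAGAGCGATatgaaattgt
The *Clk1* exon had 24.4 and 29.0 in shSCR, between 38.3 and 52.9 in shUL1, and 46.5 and 64.5 in NI (adjusted p = 0.0782, and 0.0417 with the block), and the *Clk2* exon was between 67.5 and 73.8 in all these libraries (adjusted p = 0.973). In the other kinase of this family with such introns, *Clk4*, they were between 19.5 and 22.1 in shSCR and between 27.4 and 38.9 in shUL1, without passing (adjusted p = 0.148 and 0.174). The levels of *Clk1* and *Clk2* mRNA did not pass the test, with log2 differences of −0.49 and −0.16 (adjusted p = 0.0613 and 0.457). The *Clk1* and *Clk2* introns in the shCPSF3 libraries were between 26.7 and 41.2, and 0 of the 284583 events differed between shUL1 and shCPSF3 cells (19800 at an unadjusted p under 0.05, or 6.96%).

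**Figure D5:**
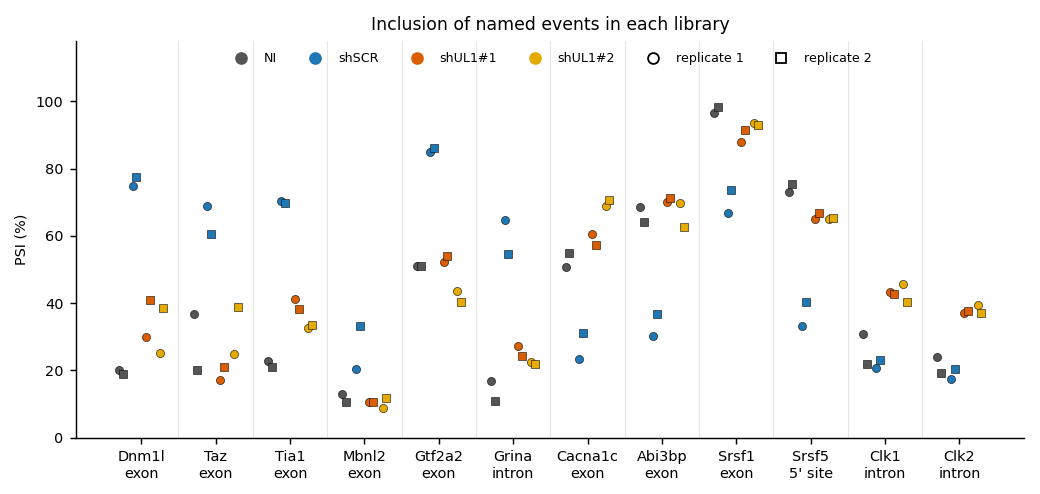
PSI (%) of 12 named events in each library of NI, shSCR, shUL1#1 and shUL1#2 cells, with circles for replicate 1 and squares for replicate 2. In *Taz*, *Mbnl2*, *Abi3bp* and *Gtf2a2* the shUL1 libraries lie near NI, in *Dnm1l*, *Tia1*, *Grina*, *Srsf1* and *Srsf5* between NI and shSCR, and in *Cacna1c*, *Clk1* and *Clk2* above both.

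The 3 exons that the study assayed separately had lower precision. The 63 nt exon of *Plod2*, a lysyl hydroxylase of collagen, had a PSI of 60.2 and 30.0 in shSCR, 87.2 and 76.8 in shUL1#1, 83.3 and 72.7 in shUL1#2, and 93.0 and 93.7 in NI. The ∆PSI of 34.9 passed only with the block (adjusted p = 0.0812 without it and 0.0212 with it), and the shSCR libraries stood far apart. The 21 nt exons of *Pcnt*, a centrosomal protein, and *Afdn*, a protein of adherens junctions, had ∆PSI of 23.4 and 19.5 (adjusted p = 0.431 and 0.460). The *Pcnt* exon had 31.9 and 20.4 in shSCR, 64.8 and 39.4 in shUL1#1, 66.7 and 27.4 in shUL1#2, and 100 in both NI libraries. The *Afdn* exon had 29.9 and 14.8, 50.8 and 25.1, 57.9 and 33.7, and 79.7 and 84.9 in the same order. Each shUL1 library was above the shSCR library of the same number, but replicate 2 of shUL1#2 for *Pcnt* and of shUL1#1 for *Afdn* lay within the range of shSCR.

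Of the 236 genes with a changed event, 219 were listed in the expression table, and 31 of these were among the 987 genes with a changed level (14.2% of the 219, 3.14% of the 987, against 10.5% of all listed genes). Besides *Tia1* and *Taz*, the 31 include *Cdh11*, *Abi3bp* and *Col16a1*, which rose, and *Myo6* and *Sun1*, which fell. *Col16a1*, *Myo6* and *Sun1* were named after their values were seen. *Abi3bp* rose from 90.4 to 392 scaled CPM by the means (2.01, adjusted p = 0.0204), with 15.6 in NI, while its 48 nt exon was near the day 0 PSI in shUL1 cells. Level and inclusion of *Abi3bp* thus stood in opposite relations to day 0.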

How the data were processed

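RNA of the 12 knockdown libraries (6 groups of 2) was sequenced from stranded libraries. According to the methods of the study and the submitters' processing notes, reads were aligned to mm10 with STAR 2.7.1a and gene values were made with edgeR 3.16.5. The deposited expression signal is CPM on library sizes scaled by the authors, with genes of low values removed. The deposited PSI values are percentages made by the authors with vast-tools, which also gives the reads for inclusion and exclusion behind each value. A filter on the coefficient of variation that the methods describe was not applied to the deposited table, since 3478 genes had a value under 0.2. The overexpression tables were not used here.

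Genes were tested with *limma* 3.58.1 (R 4.3.3, with trend) on log2(scaled CPM + 1) in 1 fit of all 12 libraries, since groups of 2 leave few degrees of freedom. Fold changes on this scale understate those of low genes. Events were tested with *limma* (robust) on log2((inclusion reads + 1)/(exclusion reads + 1)), weighted by 1/(counting variance + 0.1), for 284583 of 661941 annotated events that scored at least VLOW for coverage in all 12 libraries, with at least 1 read of each kind. P values were two-sided and adjusted by Benjamini-Hochberg over all genes or events. The scripts were tested on simulated data. Depths are given as reads on listed genes, and the step of 1 read limits the precision of low values only.

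Named genes were the target and its relatives, the 15 largest rises and falls with an adjusted p under 0.05, a mean of at least 5 scaled CPM in the higher group and no overlap between shUL1 and shSCR libraries, up to 3 in each direction of each of 24 gene lists (where none passed, the 2 of highest level), and those that differed from shCPSF3. Named events were the 8 largest in each direction, those in genes of splicing regulators, and those assayed by the study. Genes and events outside these rules are marked where they first appear, or serve to describe an event or a label check. Not every gene these rules gave is reported here. The members, lists and rules were chosen with earlier results of these data known.

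Replicate numbers came from the labels. Deviations of same-numbered libraries from their group means correlated between every pair of day 12 groups (r from 0.674 to 0.949 across genes, 0.146 to 0.366 across 11835 events, which are not independent replicates), and not between NI and day 12 (r from −0.127 to 0.0218 across genes). A fit with the replicate number as a block was therefore run. This block also pairs NI with day 12 libraries by number, which the correlations do not bear out, so its calls against NI carry this limit. Alternatives were other pseudocounts, a filter on low values, median-of-ratios scaling, other groups in the fit, each shRNA alone, PSI in percent, a stricter coverage score, and leaving out each library. Gene coordinates, exons and transcript sequences were taken from GENCODE for mm10.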

Additional observations from a re-analysis of the deposited data

Results flagged for a closer look

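The effects of both knockdowns, each against the same shSCR libraries, differed in 4 genes by a direct test of shUL1 against shCPSF3 (*limma*, adjusted p under 0.05). The difference was −1.05 for *Sdc3* (adjusted p = 0.0344), 0.88 for *Podxl* (0.0433), 1.11 for *Slc38a4* (0.0106) and 1.49 for *Ptgis* (0.0106), on the log2 scale. *Sdc3* was lower in every shUL1 library than in shCPSF3#1 but overlapped with shCPSF3#2. *Slc38a4* was higher in all 4 shUL1 libraries than in all 4 shCPSF3 libraries, by little against shCPSF3#2. For *Ptgis* all 4 shUL1 libraries were above the 4 shCPSF3 libraries, those of shUL1#2 by most. Against the 17.0 and 19.5 scaled CPM of shSCR, *Ptgis* was not called for shUL1#1 (log2 difference 0.06, *limma* adjusted p = 0.868). It rose with shUL1#2 (1.69, adjusted p = 0.00706). Without shUL1#2 replicate 1 only *Ptgis* passed, without shUL1#2 replicate 2 *Ptgis* and *Slc38a4* did, and 0 genes passed without any 1 of the shUL1#1 libraries, the shCPSF3#2 libraries or shCPSF3#1 replicate 1.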

How the results depend on the processing

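The count of 987 genes that differed between shUL1 and shSCR was between 900 and 1015 under other pseudocounts, the filter on low values, median-of-ratios scaling and the fit of NI, shSCR and shUL1 alone. It was 2768 with the replicate block and 3980 with the block in the day 12 libraries only, 465 for shUL1#1 alone and 588 for shUL1#2 alone, and between 158 and 728 with 1 library left out. Against NI, 4045 genes became 5598 with the block and between 2135 and 3700 with 1 library left out. The NI libraries did not share the deviations that the block models. Between the shRNAs the count was 0 in each setting except for 1 gene, *Ptgis*, without shUL1#2 replicate 2, and between shUL1 and shCPSF3 it was 70 with the block and between 0 and 7 with 1 library left out. The 883 events became 1350 with the block, 92 for shUL1#1 alone, 190 for shUL1#2 alone, and between 57 and 477 with 1 library left out, and 1208 on PSI in percent. The 5589 events against NI became 7401 with the block, 1210 on PSI in percent, and between 507 and 2050 with 1 library left out. The cause of these shifts was not tested, other than that fewer libraries leave fewer degrees of freedom. *Hnrnpul1* differed by −1.70 to −1.35 with 1 library left out and lost its call without shSCR replicate 1 (−1.64) or 2 (−1.40). With 1 shSCR library left, that library is assumed to vary like the other groups. All 64 genes that passed the test and met the naming rules kept their call with the block, 32 for shUL1#1 alone and 40 for shUL1#2 alone, and none changed direction in the settings run. Of the 32 named events that passed, 8 passed on PSI in percent. The planned edgeR test on reads taken from the steps of the values was not run here.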
